A study of Mus musculus with 4 samples.

Results

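The genes described are the caspases, adaptor, sensors, pore protein and cytokines of the inflammasome pathway, measured in Treg, the regulatory CD4 T cells defined by the transcription factor Foxp3. The 9 members are Casp1, Casp4, Pycard, Aim2, Nlrp3, Nlrc4, Gsdmd, Il18 and Il1b. They were chosen by gene symbol from 22180 genes with a probe set of a single symbol. All 9 were found, and each is represented by its brightest probe set, the one with the highest mean over the 4 arrays. That mean chose the probe set only for Gsdmd, since each of the other 8 had a single one.

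Treg from mice injected with an agonist of death receptor 3 (the anti-DR3 antibody, whose target is a costimulatory TNF receptor of T cells) were run on 2 arrays, and Treg from mice injected with an isotype control antibody on 2. All 4 arrays carry the strain label Foxp3Luci-DTR-4(B6 Albino). Injection was into the peritoneum, and CD4+ cells positive for a GFP reporter of Foxp3 were collected by flow sorting after 4 days. Age, sex and any pooling of mice are not given in the labels, which also do not say that replicates came from separate animals, so any p-value rests on the spread between 4 arrays that may differ only technically. Intensities of different genes are not ranked against each other, since probes differ in their response. Dim marks genes that failed a filter on the median of all probe sets of each array. Sums over marker lists are compared between arrays only, and the brightest probe sets weigh most in them.

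Inflammasomes are protein platforms that form when a sensor in the cytosol meets a danger or microbial signal. Sensors such as AIM2 and NLRP3 recruit the adaptor ASC (the product of Pycard) through pyrin domains, and ASC recruits caspase-1 through caspase recruitment domains. Active caspase-1 matures interleukin 1 beta and interleukin 18 and cleaves gasdermin D, whose fragment forms pores and causes the lytic death called pyroptosis. Mouse Casp4 encodes the protein long known as caspase-11, which binds bacterial lipopolysaccharide directly and also cleaves gasdermin D. The pathway is best known in macrophages and other myeloid cells.

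Casp1, Casp4 and Pycard were higher after anti-DR3 past the threshold, and the upstream stretches of these 3 genes are therefore shown. They are the 250 bases before the annotated start, 5′ to 3′ along the gene, from RefSeq on GRCm38.p6. Capitals mark matches to the NF-kappaB consensus on either strand, found by a search of the letters. The windows are chr9:5298267-5298516, + strand for Casp1, chr9:5308599-5308848, + strand for Casp4 and chr7:127993868-127994117, - strand for Pycard.
Casp1: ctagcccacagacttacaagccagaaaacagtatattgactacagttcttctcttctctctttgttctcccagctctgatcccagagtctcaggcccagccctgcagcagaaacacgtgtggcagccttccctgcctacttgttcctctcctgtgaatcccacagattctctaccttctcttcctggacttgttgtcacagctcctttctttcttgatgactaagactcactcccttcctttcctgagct
Casp4: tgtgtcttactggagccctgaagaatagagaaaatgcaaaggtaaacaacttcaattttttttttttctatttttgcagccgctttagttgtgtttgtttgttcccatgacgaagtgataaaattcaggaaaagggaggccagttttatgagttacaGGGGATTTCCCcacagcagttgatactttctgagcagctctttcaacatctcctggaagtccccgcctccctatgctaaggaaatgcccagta
Pycard: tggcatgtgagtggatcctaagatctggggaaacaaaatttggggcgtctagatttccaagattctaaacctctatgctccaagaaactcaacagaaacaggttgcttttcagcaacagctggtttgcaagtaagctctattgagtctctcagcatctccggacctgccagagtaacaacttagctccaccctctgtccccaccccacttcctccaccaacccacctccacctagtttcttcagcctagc

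Of these 3 windows only that of Casp4 held a match, a block of overlapping matches on both strands from 93 to 83 bases before the start. A match of this kind occurred in 3.90% of 32851 annotated promoter windows of the same length. Of the 10 windows listed for 8 members, 3 held one, namely both start sites of Casp4, which lie 11 bases apart and share the block, and one of Nlrp3. The interferon-stimulated response element (2.98% of windows), the STAT element TTCNNNGAA (7.02%) and the AP-1 site TGAGTCA or TGACTCA (4.46%), searched on both strands, matched 0 of the 10. These are descriptions of letters in a window, and no binding was measured here. Gsdmd had no entry.

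Casp1 encodes the caspase that matures interleukin 1 beta and interleukin 18. Its log2 intensities were 8.63 and 8.99 after anti-DR3, against 7.62 and 7.88 after control antibody. Both anti-DR3 arrays lay above both control arrays, with 0.74 between the nearest pair. The log2 difference was 1.06 ± 0.152 (SE, 2 arrays per group), or 2.08-fold (adjusted p = 0.0225, limma). With each array left out in turn, which leaves a single array in its group, the difference lay between 0.88 and 1.24. Among these fits the call held only without control antibody replicate 2.

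Casp4 encodes caspase-11, the lipopolysaccharide-binding caspase of the noncanonical pathway. Its log2 intensities were 9.42 and 9.72 after anti-DR3, against 8.52 and 8.57 after control antibody. The groups did not overlap, and the control arrays lay close together (SD 0.0391, against 0.216 between the anti-DR3 arrays). The log2 difference was 1.03 ± 0.118 (SE), or 2.04-fold (adjusted p = 0.0134, limma). The call held without anti-DR3 replicate 1 (adjusted p = 0.0468, limma) and without control antibody replicate 2 (0.0455), and was lost without anti-DR3 replicate 2 (0.0812) or control antibody replicate 1 (0.0645).

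Pycard encodes ASC, the adaptor between sensors and caspase-1. Its log2 intensities were 7.68 and 7.91 after anti-DR3, against 7.15 and 7.22 after control antibody. The groups were separated by 0.47, and the log2 difference was 0.61 ± 0.102 (SE), or 1.53-fold (adjusted p = 0.0305, limma). Leaving out any array ended the call. The adjusted p (limma) was 0.0729 and 0.17 when anti-DR3 replicate 1 or 2 was dropped, and 0.11 and 0.0772 when control antibody replicate 1 or 2 was dropped. The difference lay between 0.50 and 0.72 in these fits.

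**Figure D1:**
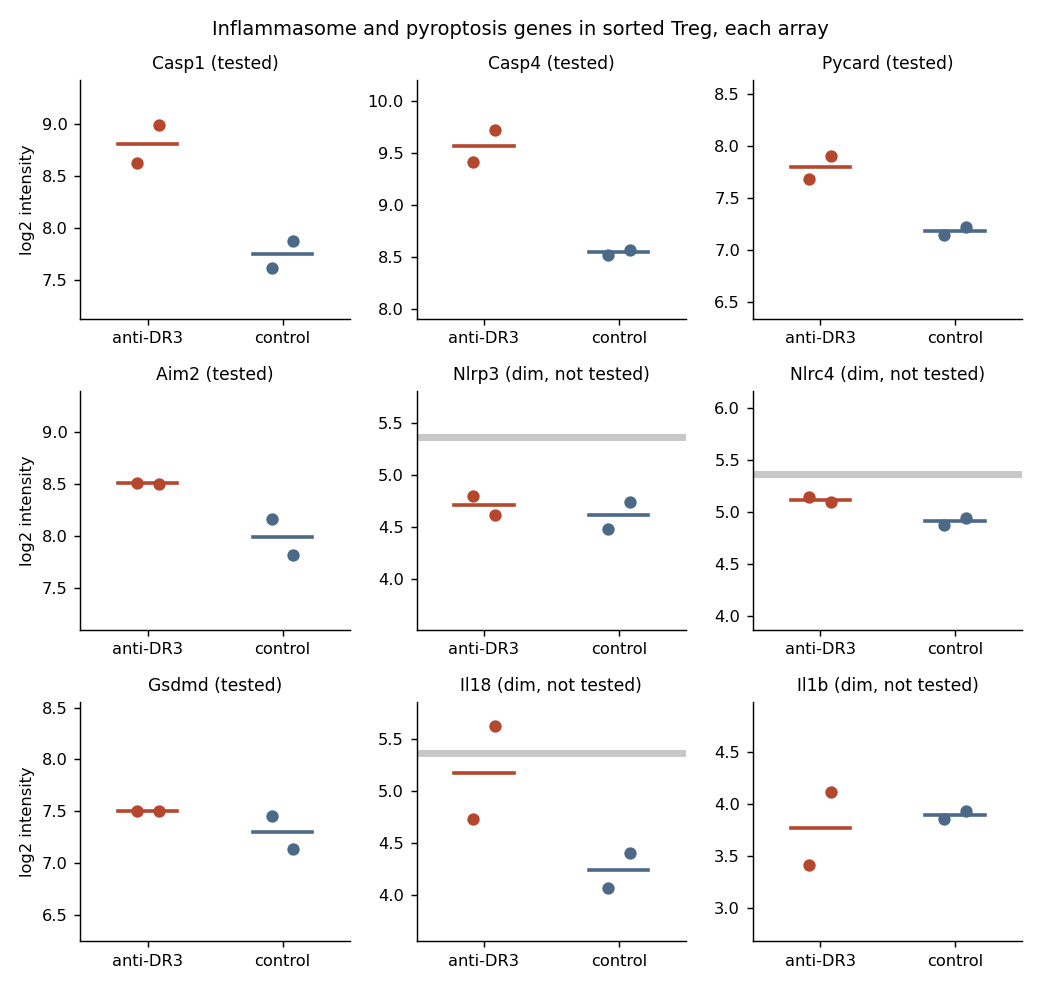
Log2 intensity of the 9 members on each array, with anti-DR3 arrays on the left and control antibody arrays on the right of each panel. Points are arrays, bars are group means, every panel spans the same range of log2 units, and the grey band, where it falls in the panel, covers the medians of all probe sets on the 4 arrays. Casp1, Casp4 and Pycard are separated by 0.74, 0.85 and 0.47, and Nlrp3 and Il1b overlap.

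Among the sensors, Aim2 was bright and Nlrp3 and Nlrc4 were dim. AIM2 binds double-stranded DNA in the cytosol. Its log2 intensity was 8.50 on both arrays after anti-DR3, against 8.16 and 7.81 after control antibody. The groups did not overlap, but the log2 difference of 0.52 ± 0.126 (SE; 95% interval 0.21 to 0.83) did not pass the threshold (adjusted p = 0.071, limma). The 2 control arrays lay apart (SD 0.245), and the difference was 0.69 when replicate 1 of them was dropped and 0.34 when replicate 2 was.

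Nlrp3 encodes a sensor of membrane damage and ion flux, and its probe set read 4.80 and 4.62 after anti-DR3, against 4.49 and 4.74 after control antibody. These groups overlapped. Nlrc4 encodes the partner of the NAIP receptors for bacterial flagellin and secretion needles. Its log2 intensities of 5.14 and 5.10 after anti-DR3 lay above those of 4.88 and 4.95 after control antibody. Both genes lay below the median of all probe sets on all 4 arrays, so neither was tested.

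Gsdmd encodes gasdermin D, the substrate whose fragment forms the pores of pyroptosis. Its brighter probe set read 7.504 and 7.507 after anti-DR3, against 7.46 and 7.14 after control antibody. The groups were only 0.04 apart, and the log2 difference of 0.20 ± 0.12 (SE; 95% interval -0.09 to 0.50) did not pass (adjusted p = 0.342, limma). With control antibody replicate 2 dropped it was 0.045, and with replicate 1 dropped 0.365. A second probe set read 5.76 and 5.49 after anti-DR3, against 5.75 and 5.50 after control antibody, and its groups overlapped, with a difference of -0.001.

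Of the cytokines, Il18 read 4.73 and 5.62 after anti-DR3, against 4.07 and 4.41 after control antibody. Only anti-DR3 replicate 2 lay above its array's median, so the gene was not tested. The difference of 0.94 on the log2 scale carried an SD of 0.63 between the anti-DR3 arrays and 0.24 between the control arrays. It was 1.38 without anti-DR3 replicate 1 and 0.49 without anti-DR3 replicate 2. Il1b, the gene of interleukin 1 beta, read 3.42 and 4.12 after anti-DR3, against 3.86 and 3.94 after control antibody. The anti-DR3 arrays of Il1b lay on either side of the control arrays, and the gene was below the median on all 4.

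The members differed in how the arrays of a group spread. Anti-DR3 replicate 2 was the higher array of its pair for Casp1, Casp4, Pycard, Il18 and Il1b. Aim2 and Gsdmd, by contrast, read nearly the same on both anti-DR3 arrays (SD 0.0028 and 0.0024) and were spread between the control arrays (SD 0.245 and 0.226). The spread of Il18 between the anti-DR3 arrays, an SD of 0.63, was the widest of the 9.

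In limma 3 of the 9 members rose, 0 fell, 2 did not pass and 4 were too dim to be tested. Of all 12114 genes tested, 4.49% rose and 1.47% fell. The 5 members tested each lay above the median on 4 of 4 arrays, so none passed the filter through one group alone. The arrays of the groups did not overlap, with anti-DR3 higher, for 7 of the 9, against 22.6% of all 22180 genes. The median log2 difference over the 9 was 0.52, beside -0.02 over all 22180 genes. The members were chosen with earlier results for Casp1 and Casp4 in these arrays known, so these counts describe the list only. With 2 arrays against 2, a two-sided exact permutation test of a single gene cannot go below p = 0.333.

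Of 10 Treg identity markers 10 passed the filter, of which Ikzf2 rose (0.58) and Il2ra (-0.49) and Lrrc32 (-0.62) fell (adjusted p = 0.0193, 0.0441 and 0.0228, limma). Quantile normalization ended the call of Il2ra, and Foxp3 differed by 0.06 (adjusted p = 0.671, limma). Over all genes 544 rose and 178 fell, and 348 rose and 243 fell with arrays centred on their median over tested genes. In these sorted populations more cells that carry a transcript and more transcript per cell cannot be told apart. Of 18 tested markers of other cells 5 rose and 0 fell, beside the 4.49% of all genes tested that rose. Of 9 tested monocyte and macrophage markers (16 listed) Csf1r, the receptor that marks this lineage, and Ccr2 rose. Their log2 differences were 0.42 and 1.17, and the 7 others did not pass. The sum over 15 with a probe set was 1020 and 1050 after anti-DR3, against 783 and 829 after control antibody. That sum includes Ccr2, and a sum without Ccr2 was not taken. Cd14, Adgre1, Fcgr1, Cd163, Vsig4 and C1qc were dim, with differences of 0.22, -0.34, -0.32, 0.095, -0.18 and 0.19. Of 10 neutrophil markers 9 were dim and 0 rose (sum 249 and 246 after anti-DR3, against 255 and 271 after control antibody). Of 3 tested dendritic cell markers (10 listed) H2-Aa rose, while Flt3, Zbtb46, Xcr1 and Siglech were dim (sum 690 and 682 after anti-DR3, against 708 and 749 after control antibody). Cd209a differed by -0.25, and by -0.03 in its other probe set, and did not pass (adjusted p = 0.183, limma). Of 4 tested B cell markers (10 listed) Ighm and H2-Aa rose, while Ms4a1, Cd79a and Pax5 were dim (sum 4320 and 4530 after anti-DR3, against 2830 and 3050 after control antibody). Without Ighm that sum was 334 and 318 after anti-DR3, against 296 and 281 after control antibody, and the other 6 probe sets of Ighm differed by -0.36 to 1.18, 3 above and 3 below 0. Of 2 tested CD8 T and natural killer cell markers (7 listed) Cd8b1 rose, while Cd8a and Ncr1 were dim (sum 339 and 356 after anti-DR3, against 298 and 274 after control antibody). Centring the arrays ended the calls of Csf1r and Cd8b1, and averaging all probe sets that of Ighm. H2-Aa stands in both the dendritic and the B cell list with the same probe set. That probe set lay above the median on 3 of 4 arrays, and a stricter filter on dim genes ended its call. The part of such cells in the members' results was not tested.

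Casp1 and Casp4 lie next to each other on chromosome 9 and point the same way, with annotated starts 10332 bases apart. Of the 3 protein-coding genes on each side of the pair, only Msantd4 was bright enough to be tested, and it did not pass (0.28, adjusted p = 0.126, limma). Casp12, the next gene after Casp4 and a caspase of the same inflammatory group, was dim, at 3.61 and 3.83 after anti-DR3, against 3.57 and 3.64 after control antibody. Gria4, on the other side of Casp1, and Kbtbd3, Pdgfd and Ddi1 were dim as well, with differences from -0.25 to 0.10.

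**Figure D2:**
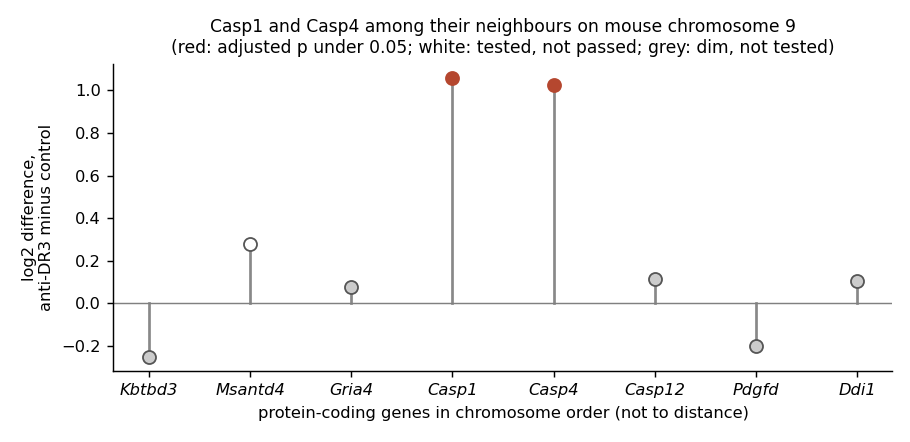
Log2 difference (anti-DR3 minus control antibody) of 8 protein-coding genes in their order on chromosome 9, with distances not to scale. Red points passed an adjusted p of 0.05, the white point was tested and did not pass, and grey points were dim. Casp1 (1.06) and Casp4 (1.03) stand above neighbours that lie between -0.25 and 0.28.

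The genes most like Casp1 over the 4 arrays, by the Euclidean distance between log2 profiles centred on their own means among 11256 genes, were Pglyrp1 (0.0911), Ttc39c (0.125), Cep55 (0.137), Tigit (0.15) and Casp4 (0.158). Pglyrp1 encodes a peptidoglycan recognition protein and Tigit a coinhibitory receptor. Pglyrp1 read 9.30 and 9.71 after anti-DR3, against 8.42 and 8.61 after control antibody. For Casp4 they were Gpr55 (0.102), Alox8 (0.124), Pglyrp1 (0.125), Cep55 (0.136) and Rilpl2 (0.137), and Casp1 stood at rank 9. Pycard was at rank 200 from Casp1, Aim2 at 788 and Gsdmd at 3064. These distances cover 4 arrays and contain the size of the group difference itself.

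The other genes of the pathway came from 9 lists of 152 distinct genes. Of these, 94 were tested, 19 rose and 0 fell, with a median log2 difference of 0.19, beside 0.01 over all genes tested and the 4.49% of them that rose. A further 40 were dim, and 18 had no probe set with a single symbol and are not analysed here. Of the 94, 89 lay above the median on all 4 arrays. Of these 19 calls, 12 were kept with arrays centred on their median over tested genes, and Txnip, which was lower, also passed. A trended robust prior kept all 19 and added 14, of which Nod1 (-0.56), Card6 (-0.49) and Txnip (-0.35) were lower.

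**Figure D3:**
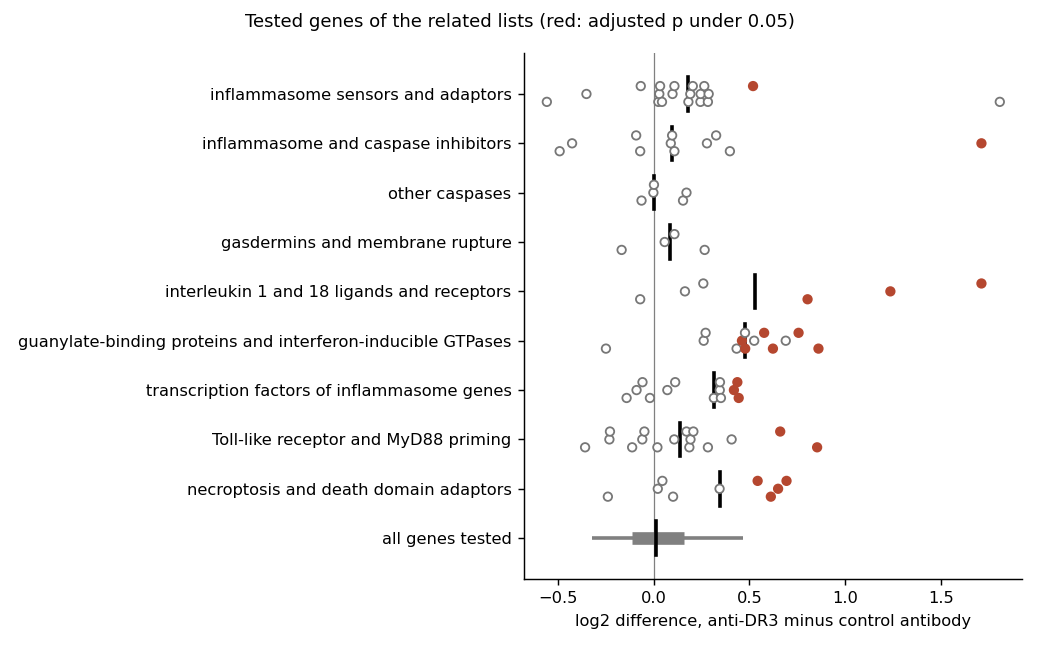
Log2 difference (anti-DR3 minus control antibody) of every tested gene of the 9 related lists, with red points past an adjusted p of 0.05 and a black bar at each list's median. The lowest row gives all 12114 genes tested, with the 25th to 75th percentile as a thick and the 5th to 95th (-0.32 to 0.46) as a thin line. Il1r2 and Il18bp each appear in 2 lists, and the open point at 1.81 is Ifi204.

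Upstream, among 19 tested sensors and adaptors other than the members, 1 rose and 0 fell (median 0.18). It was Sting1, which relays signals of cytosolic DNA to interferon, at 10.11 and 10.19 after anti-DR3, against 9.60 and 9.65 after control antibody (log2 difference 0.52 ± 0.0813, adjusted p = 0.0277, limma). The NAIP receptors that work with Nlrc4 (Naip2, Naip5 and Naip6) differed by 0.28, 0.24 and 0.18 and did not pass (adjusted p = 0.363, 0.158 and 0.30, limma). Txnip and P2rx7, both known as activators of NLRP3 in myeloid cells, differed by -0.35 and -0.07 and did not pass either (adjusted p = 0.0576 and 0.674, limma).

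Of 16 tested genes of Toll-like receptor priming 2 rose and 0 fell (median 0.14). Ly96, which encodes MD-2, the lipopolysaccharide-binding partner of TLR4, read 8.80 and 8.99 after anti-DR3, against 7.99 and 8.09 after control antibody (1.81-fold, adjusted p = 0.0134, limma). Tlr4 itself was dim, at 4.87 and 4.75 after anti-DR3, against 4.77 and 4.75 after control antibody, as was Cd14. Tlr2 rose 1.58-fold (adjusted p = 0.0144, limma), but it lay above the median only on the anti-DR3 arrays, so its passing the filter rested on that group.

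Of 13 tested transcription factors 3 rose and 0 fell (median 0.31). They were Irf7 (1.35-fold) and Stat2 (1.34-fold), factors of the interferon response, and Nfkb2 (1.36-fold), a subunit of the noncanonical NF-kappaB pathway, with adjusted p = 0.0477, 0.0449 and 0.0418 (limma). None of these 3 passed with centred arrays (adjusted p = 0.0735, 0.0636 and 0.0688, limma), with quantile normalization (0.0668, 0.0608 and 0.0571) or with the replicate number as a block (0.0724, 0.0601 and 0.0602). Irf1 and the Gsdmd activator Irf2 differed by 0.35 and 0.34 and did not pass (adjusted p = 0.103 and 0.107, limma).

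Guanylate-binding proteins and interferon-inducible GTPases coat bacteria or vacuoles and expose ligands to AIM2 and caspase-11 in infected mouse macrophages. Of 13 tested 6 rose and 0 fell (median 0.48). Iigp1 read 8.71 and 8.80 after anti-DR3, against 7.74 and 8.05 after control antibody (1.82-fold, adjusted p = 0.022, limma). Gm12250, the gene of IRGB10, rose 1.69-fold (adjusted p = 0.0151, limma). Irgm1 and Igtp rose 1.54- and 1.49-fold, and Gbp5 and Gbp7 1.39- and 1.38-fold (adjusted p = 0.0316, 0.0321, 0.0392 and 0.0473, limma). With centred arrays Igtp, Gbp5 and Gbp7 did not pass (adjusted p = 0.0527, 0.0606 and 0.0769, limma), and quantile normalization also ended the call of Gbp5. With the replicate block Irgm1, Gbp5 and Gbp7 did not pass (0.05, 0.0552 and 0.0523), while Gbp4 and Gbp10 did. The groups did not overlap, with anti-DR3 higher, for 11 of the 13, beside 31.6% of all genes tested.

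Downstream of caspase activation, 0 of 4 tested gasdermin and membrane rupture genes rose or fell, with 1 under an unadjusted p of 0.05 (limma). That gene was Chmp4b, a subunit of the membrane repair machinery, which read 8.23 and 8.24 after anti-DR3, against 7.92 and 8.02 after control antibody (0.27, adjusted p = 0.113, limma). All gasdermins with a probe set other than Gsdmd (Gsdme, Gsdma, Gsdma2, Gsdma3, Gsdmc, Gsdmc2, Gsdmc3 and Pjvk) were dim. The 4 tested genes were Chmp4b, Chmp3, Ninj1 and Ninj2. Ninj1, which ruptures the membrane in the last step of pyroptosis, differed by -0.17 (adjusted p = 0.261, limma).

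Of 5 tested genes of other caspases and their partners 0 rose or fell, and 0 lay under an unadjusted p of 0.05 (limma). The smallest p belonged to Casp6, at 0.17 (adjusted p = 0.226, limma). Casp8, the initiator of death receptor apoptosis, differed by 0.001 and Casp9 by -0.002. Among 9 tested necroptosis and death domain genes 4 rose and 0 fell (median 0.34). Ripk3, the kinase of necroptosis, rose 1.57-fold, its substrate Mlkl 1.46-fold and the nucleic acid sensor Zbp1 1.53-fold (adjusted p = 0.0268, 0.0385 and 0.0187, limma). The call of Mlkl was lost with centred arrays (adjusted p = 0.0583, limma). Apaf1, the scaffold of caspase-9, rose 1.62-fold (adjusted p = 0.0298, limma).

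**Figure D4:**
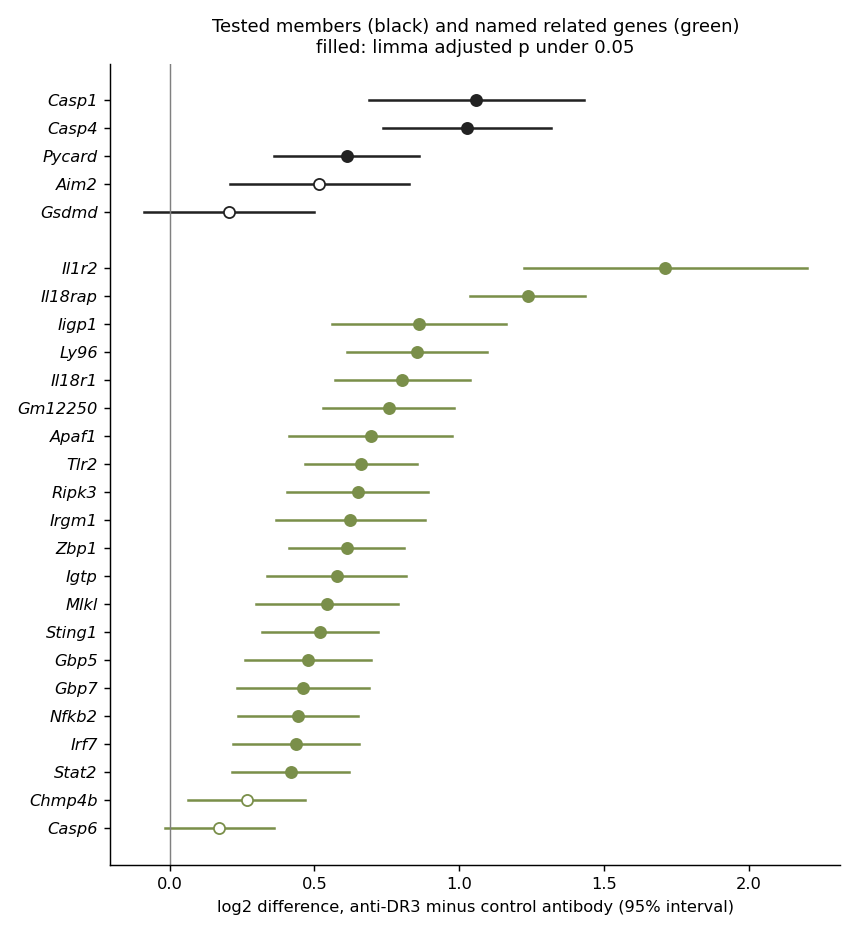
Log2 difference (anti-DR3 minus control antibody) with its 95% interval from limma for the 5 tested members (black) and the named related genes (green). Filled points passed an adjusted p of 0.05. Casp1 and Casp4 lie at 1.06 and 1.03, Pycard at 0.61, and Gsdmd at 0.20 with an interval that includes 0.

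On the receiving side of the cytokines, 3 of 6 tested ligand and receptor genes rose and 0 fell (median 0.53). Both chains of the receptor for interleukin 18 rose, and Il18rap and Il18r1 had differences of 1.24 and 0.80 (adjusted p = 0.00626 and 0.014, limma). Il1r2, the decoy receptor that binds interleukin 1 without signalling, read 8.66 and 8.97 after anti-DR3, against 7.38 and 6.83 after control antibody (adjusted p = 0.0134, limma). The signalling receptor Il1r1 was dim, as were Il1a, Il33 and Il1rn, and Il1rap did not pass (0.16, adjusted p = 0.326, limma). Il18bp, the soluble inhibitor of interleukin 18, differed by -0.07 (adjusted p = 0.633, limma).

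Of 11 tested inhibitors of inflammasomes, caspases or their cytokines 1 rose and 0 fell (median 0.10). It was the decoy receptor Il1r2 again, and the other 10 did not pass.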

How the data were processed

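Total RNA of sorted Treg was measured on 4 Affymetrix whole-transcript arrays. The deposited table gives linear intensities, which the authors summarised per probe set with RMA (background correction, normalization between arrays and probe set summary), per the submitters' processing notes. Its version is not given in the sources used here, nor is a genome build. RMA can hide a change that all genes share.

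Values were taken to log2. Of 41345 probe sets 23521 had 1 gene symbol, 1814 several and 16010 none. Entrez identifiers matched 23328 of those with 1 symbol to a RefSeq table of GRCm38.p6, which updated 0 symbols. Genes above the array median of all probe sets on at least 2 of 4 arrays were tested (12114, with 10066 dim). The comparison used limma 3.58.1 (R 4.3.3) with lmFit and eBayes, two-sided, with 2 residual and 3.94 prior degrees of freedom. Benjamini-Hochberg adjustment ran over the whole set of tested genes, and 0.05 was the threshold. A positive difference means higher after anti-DR3. The number of arrays limits precision. The code was tested on simulated data.

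The members and lists were chosen with earlier results of these data known. Named were all members, genes of the 9 related lists past the threshold (at most 8 per list, or the smallest p where none passed), the 5 nearest profiles and 3 neighbours on each side. Other list genes were named for their role after their values were seen. Alternatives covered the replicate block, each array left out, dim filter, normalization, variance model, array weights, probe set choice and threshold. Promoters came from RefSeq.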

Additional observations from a re-analysis of the deposited data

How the results depend on the processing

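With 2 arrays per group the calls were sensitive to single arrays. With each array left out in turn limma called 0 to 312 genes, 0 to 2 members, 0 to 9 related genes and 0 to 2 markers of other cell types, against 722, 3, 19 and 5 with all arrays. No filter on dim genes gave 14 genes (3573 under an unadjusted p of 0.05), 0 members, 1 related gene and 0 markers, and an ordinary linear model gave 0 of each (2087 unadjusted). A trended robust prior gave 1444 genes and 33 related genes and a stricter filter 1157 genes, both with Aim2 as a further member (adjusted p = 0.0214 and 0.0428, limma). Centring gave 13 related genes (12 of the 19) and 3 markers, and quantile normalization 15, all among the 19. An adjusted p under 0.10 gave 1689 genes, 30 related genes and 4 members, and a 2-fold minimum 72 genes, 2 members, 2 related genes and 1 marker. The causes were not tested.

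Casp1, Casp4 and Pycard passed with the replicate block, stricter filter, centring, quantile normalization and trended robust prior. They did not pass without the filter or with the ordinary linear model. Array weights, equal within each group, and the probe set choices kept them but left their differences unchanged, since each has a single probe set. Aim2 passed only with the stricter filter and the trended robust prior, and Gsdmd in no setting. In no setting run did one of these 5 turn direction. Without the filter the dim members did not pass (Il18 adjusted p = 0.246, Nlrc4 0.345, Nlrp3 0.763 and Il1b 0.829, limma). Over tested members and named related genes 0 differences were reversed in the settings run.

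The labels do not say what replicate numbers share, and the replicate 1 minus replicate 2 values of both groups had a correlation of 0.0512 over genes, which 2 pairs cannot settle. With the replicate block limma called 563 genes, 3 members, 16 related genes and 3 markers. It kept the calls of Casp1, Casp4 and Pycard and 13 of the 19 related calls. Those of Gbp5, Gbp7, Irgm1, Irf7, Stat2 and Nfkb2 ended. Added were Gbp4 and Gbp10, which were higher, and Card6, which was lower (-0.49). Of the markers the block ended Csf1r and Cd8b1.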

Other observations

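Ifi204, a member of the Aim2-like family, was named after its values were seen. Its log2 intensities were 5.73 and 6.23 after anti-DR3, against 6.0 and 2.34 after control antibody. Control antibody replicate 2 stood far below the other 3 arrays, and the difference of 1.81 ± 1.07 (SE) did not pass (adjusted p = 0.348, limma). Control antibody replicate 1 lay between the anti-DR3 arrays. Birc5, the gene of survivin and a dim member of the inhibitor list, read 5.41 and 5.28 after anti-DR3, against 4.16 and 4.51 after control antibody.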
